A study of Ovis aries with 3 samples.

Results

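The extracellular matrix genes described here are the chains of the collagens and laminins together with 10 matrix genes taken by name, as counted in single cells of sheep embryos. Members were chosen by symbol only. They are the symbols made of COL, a number, A and a number, the symbols made of LAMA, LAMB or LAMC and a number, and *FN1*, *SPARC*, *DCN*, *LUM*, *VCAN*, *POSTN*, *PCOLCE*, *BGN*, *NID1* and *HSPG2*. The rule found 60 of the 26478 genes listed, of which 16670 carried a symbol. There were 40 collagen chains, 10 laminin chains and the 10 genes taken by name. The genes *COL6A1*, *COL4A4*, *COL7A1*, *COL20A1*, *COL6A4*, *LAMA1* and *LAMB4* were not found by symbol and were not analysed here.

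Fibrillar collagens are secreted as procollagens, trimmed and assembled into the fibers that give mesenchyme its tensile strength. Type IV collagen and the laminins form the networks of the basement membrane, the sheet under epithelia and around vessels. Proteoglycans such as decorin (*DCN*), lumican (*LUM*) and versican (*VCAN*) bind fibers or fill the space between them, and in the embryo the matrix is also a substrate for migrating cells.

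Whole embryos were dissociated and their cells sequenced in 3 libraries, 1 for each group. E19 HSTS came from 1 embryo of Hulunbuir Short-tailed sheep, a breed whose genotyped animals in this study were homozygous for a missense mutation of *T*, on day 19. The other libraries came from Hu sheep, homozygous for the wild-type allele, as E19 HS from 1 embryo on day 19 and E16 HS on day 16. For E16 HS the study names 3 embryos and the label of the library names 1, so that pooling could not be settled. All embryos were digested with collagenases II and IV, which cut the protein matrix itself, and all suspensions passed through red blood cell lysis. Breed and genotype cannot be told apart, and neither can stage and library. E16 HSTS embryos were not analysed here.

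The cells described had 200 to 6000 genes, 1000 to 30000 unique molecular identifiers (UMIs) and no more than 10% of UMIs from mitochondrial genes. E19 HSTS kept 9618 such cells with 99580051 UMIs, E19 HS 10629 with 88733467 and E16 HS 11329 with 113213654, at median depths of 6900 to 9046 UMIs. *T*, the mutated gene, was counted 6 times with E19 HSTS, 50 times with E19 HS and 224 times with E16 HS. Any pair of libraries shared 31 to 37 kept cell barcodes, which is 0.322 to 0.348% of the smaller library. Levels are given as counts per 1000000 UMIs (CPM) of the library or cell group. They are counts of transcript ends that do not depend on length in a known way, so that levels of different genes were not compared. Each value stands on 1 library, with no test. The intervals are exact at the 95% level and cover counting error only, and the spread between embryos is unknown.

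Extracellular matrix genes made up more of the RNA in E16 HS than in either E19 library. Their summed level was 1510 CPM in E19 HSTS, 1739 CPM in E19 HS and 4454 CPM in E16 HS. E16 HS was 2.56 times E19 HS (2.55 to 2.58), and E19 HSTS was 0.868 times E19 HS (0.862 to 0.875). Of the 60 genes, 44 had at least 100 UMIs over the E16 HS and E19 HS libraries and were compared. Of these, 15 were at least 2-fold higher in E16 HS, where 6.47% of the 11336 genes compared were, and 4 were at least 2-fold lower, against 5.13% of all genes. The median log2 ratio was 0.58 for the 44 members and 0.25 for all genes. TMM scaling moved the median of all genes to 0.04. On that scale 13 members were higher, against 4% of all genes, and 7 lower, against 6.79%.

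The fibrillar collagens had the largest part in this difference. Together they were 3.56 times as high in E16 HS as in E19 HS (3.53 to 3.60), and 4 of their 10 compared chains were past 2-fold higher and 1 past 2-fold lower. *COL1A1*, the main chain of type I collagen, was at 75.6 CPM in E19 HSTS, 96.9 CPM in E19 HS and 722 CPM in E16 HS, a ratio of 7.45 (7.28 to 7.61) between the HS stages. Its partner *COL1A2* was at 103, 124 and 504 CPM in the same order, with a ratio of 4.05 (3.97 to 4.14). *COL3A1*, the chain of type III collagen, was at 206, 236 and 717 CPM, with a ratio of 3.04 (2.99 to 3.08). In each of these genes E16 HS stood apart and the E19 libraries lay close to each other. *COL5A1*, a chain of the type V collagen that helps to start fibers, was at 5.98 CPM in both E19 libraries and 26.6 CPM in E16 HS, a ratio of 4.44 (4.04 to 4.87). *COL5A2* had a ratio of 1.69 (1.63 to 1.76), and the cartilage collagens *COL2A1* and *COL11A1* had ratios of 1.40 (1.36 to 1.44) and 1.81 (1.73 to 1.90). The remaining type V chain, *COL5A3*, went the other way, with 2.13 CPM in E19 HSTS, 1.65 CPM in E19 HS and 0.238 CPM in E16 HS, a ratio of 0.145 (0.0924 to 0.220). The type V chains therefore differed in direction between the stages. The fibrillar chain *COL24A1* was also lower in E16 HS, with a ratio of 0.567 (0.430 to 0.745).

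Among the collagens that bind to fibers or lie at membranes, differences ran in both directions. *COL12A1*, a fiber-associated collagen, was at 9.08 CPM in E19 HSTS, 8.54 CPM in E19 HS and 44.5 CPM in E16 HS, a ratio of 5.21 (4.82 to 5.63). *COL16A1* was at 1.69, 2.23 and 6.51 CPM, with a ratio of 2.92 (2.49 to 3.43). *COL18A1*, the basement membrane collagen whose end fragment is endostatin, was at 38.8, 38.3 and 119 CPM, with a ratio of 3.10 (2.98 to 3.22). In all of these E16 HS stood above both E19 libraries. *COL8A1*, a short-chain collagen of hexagonal networks, was the member furthest in the opposite direction among those compared, at 4.04, 5.26 and 0.556 CPM, with a ratio of 0.106 (0.0799 to 0.138). *COL14A1*, *COL26A1* and *COL9A2* had ratios of 0.549 to 0.819. The membrane collagens *COL13A1*, *COL23A1* and *COL25A1* had ratios of 0.920 to 1.18, close to 1.

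In the basement membrane, 3 of the 4 compared type IV chains were past 2-fold higher in E16 HS. *COL4A1*, a chain of the common type IV network, was at 161 CPM in E19 HSTS, 182 CPM in E19 HS and 377 CPM in E16 HS, a ratio of 2.08 (2.04 to 2.11). *COL4A2*, with which it forms the trimer, was at 43.0, 47.4 and 78.7 CPM, a ratio of 1.66 (1.60 to 1.72). *COL4A5* and *COL4A6*, which lie head to head in mammalian genomes, had ratios of 2.55 (2.40 to 2.71) and 3.01 (2.83 to 3.20). Of the laminin chains, *LAMA4* was at 3.61, 3.34 and 15.4 CPM with a ratio of 4.62 (4.08 to 5.24). *LAMA5*, the broadly used epithelial alpha chain, was at 19.1, 21.0 and 59.5 CPM with a ratio of 2.83 (2.69 to 2.98). *LAMA2*, the alpha chain of muscle, went the other way at 1.97, 1.58 and 0.309 CPM, with a ratio of 0.196 (0.131 to 0.286). Alpha chains thus differed in direction, while the beta and gamma chains of most laminin trimers were higher in E16 HS. *LAMC1* had a ratio of 2.15 (2.03 to 2.27), *LAMB1* lay just under the threshold at 2.00 (1.92 to 2.08), and *LAMB2* had a ratio of 1.69 (1.53 to 1.87). The linkers *NID1* and *HSPG2*, which join laminin to type IV collagen, had ratios of 1.14 (0.976 to 1.33) and 1.17 (1.00 to 1.37).

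Proteoglycans and adhesive proteins were spread over the whole range. *DCN* was at 92.3 CPM in E19 HSTS, 128 CPM in E19 HS and 463 CPM in E16 HS, a ratio of 3.61 (3.54 to 3.68). *LUM* was at 61.1, 87.2 and 305 CPM, with a ratio of 3.50 (3.41 to 3.59). *VCAN*, the large proteoglycan of loose matrix, was at 226 CPM in both E19 libraries and 265 CPM in E16 HS, a ratio of 1.17 (1.15 to 1.19). Decorin and lumican were thus high in E16 HS, and versican hardly differed. *BGN*, for biglycan, the close relative of decorin, was at 4.35, 6.51 and 2.62 CPM, with a ratio of 0.403 (0.349 to 0.464). *POSTN*, for the adhesive protein periostin, was at 76.8, 95.4 and 53.7 CPM, a ratio of 0.562 (0.544 to 0.581) just inside 2-fold. *FN1*, for fibronectin, had a ratio of 1.90 (1.81 to 2.01), the calcium-binding *SPARC* 1.48 (1.40 to 1.56) and the procollagen C-proteinase enhancer *PCOLCE* 1.44 (1.40 to 1.48).

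**Figure D1:**
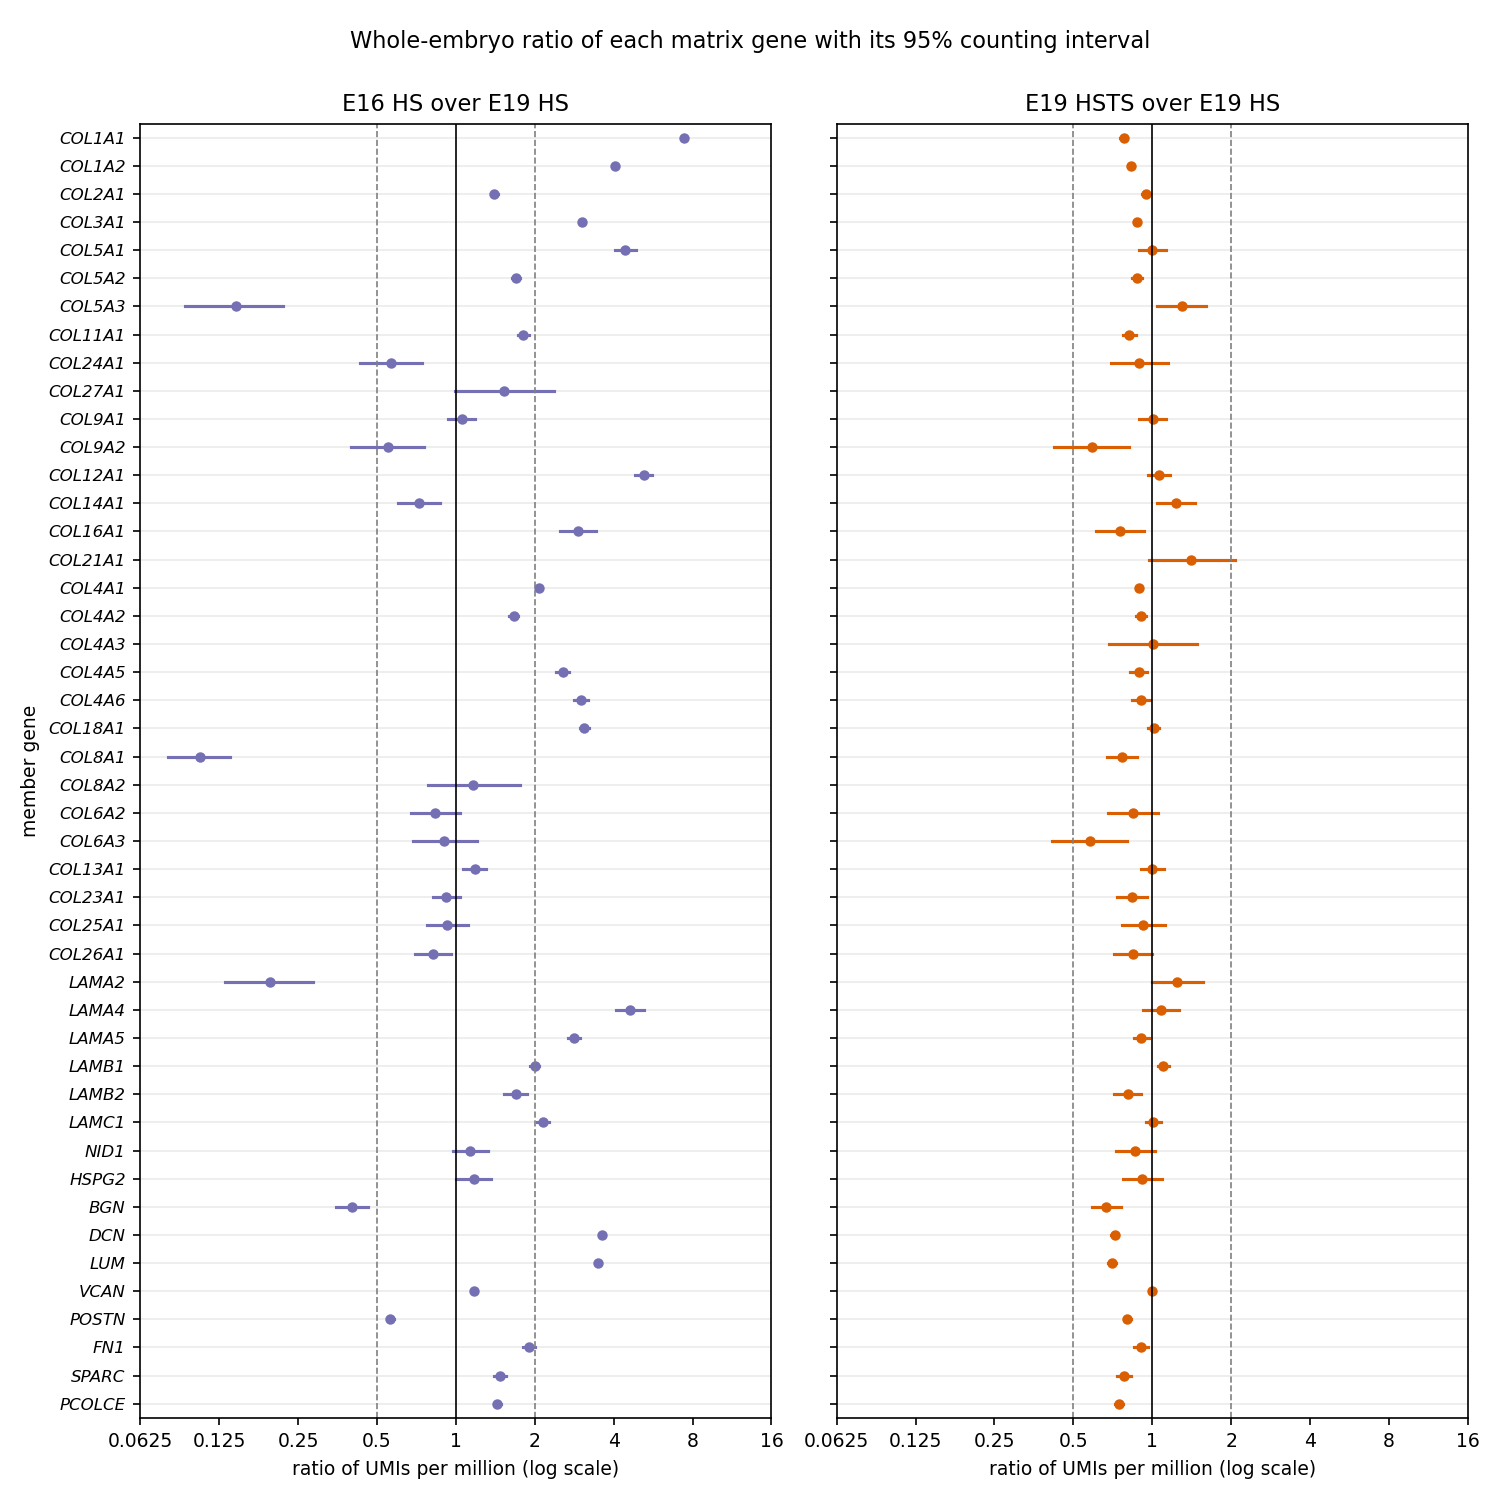
Ratio of CPM between libraries for 46 extracellular matrix genes on a log axis, with exact 95% intervals for counting error, for E16 HS over E19 HS and for E19 HSTS over E19 HS. *COL1A1* lies furthest to the right at 7.45 and *COL8A1* furthest to the left at 0.106 for the stages, while the ratios between the E19 libraries stay within 2-fold.

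The members are listed at very different depth, and 16 of the 60 had fewer than 100 UMIs over the HS libraries. Among them were *COL10A1*, *COL11A2*, *COL15A1*, *COL17A1*, *COL19A1*, *COL21A1*, *COL22A1*, *COL28A1*, *COL4A3*, *COL6A5*, *COL6A6*, *COL9A3*, *LAMA3*, *LAMB3* and *LAMC3*. *COL10A1*, the collagen of hypertrophic cartilage, was counted 0 times in both E19 HSTS and E16 HS and 3 times in E19 HS, where 3 counts correspond to 0.0301, 0.0265 and 0.0338 CPM in the same order. *COL17A1*, a collagen of epithelial hemidesmosomes, was counted 15 times in E19 HSTS, 4 times in E19 HS and 46 times in E16 HS. At this depth no difference in these genes is described, apart from *COL4A3* and *COL15A1*. They are taken up with the cells that held most of their UMIs in the E19 libraries.

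Cells of the 3 libraries were then clustered together on 2000 variable genes from which all members were left out, so that the levels below did not form the groups. The groups were named after marker genes. Somite-like cells were 31.2% of the cells of E19 HSTS, 35.1% of those of E19 HS and 24.5% of those of E16 HS. Mesenchyme-like cells made up 0.395%, 0.630% and 13.7%, or 38, 67 and 1556 cells. Blood progenitor-like cells were 27.4%, 13.4% and 17.7%, spinal cord-like cells 16.7%, 22.6% and 6.81%, and caudal progenitor-like cells 0.312%, 1.05% and 10.0%.

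The mesenchyme-like group was a single cluster held mostly by 1 library, and its name rests on levels of markers and not on its leading genes. Its leading genes included *REG4*, *PMP22*, *LGALS3*, *RARRES1*, *ANXA1*, *A2M* and *RBP4*, with no mesenchyme marker among the leading 10. The 10 mesenchyme markers summed to 592 CPM in E19 HSTS, 649 CPM in E19 HS and 1267 CPM in E16 HS, with 3, 3 and 0 of them at 0. In the somite-like cluster led by *IGFBP3* they summed to 262, 266 and 449 CPM, and in blood progenitor-like cells to 9.41, 10.4 and 23.6 CPM. *TMEM88* gave most of the sum, at 492 CPM in E19 HS and 1065 CPM in E16 HS. Besides it, only *HAND2* and *FOXF1* were higher than in that somite-like cluster in every library. *PRRX1*, *TWIST2*, *PDGFRA*, *OSR1*, *TCF21* and *PDGFRB* were higher in the somite-like cluster in every library, and *TBX5* was in the E19 libraries. There *PDGFRA* was at 37.4 and 51.6 CPM, against 26.4 and 28.6 CPM in mesenchyme-like cells of E19 HS and E16 HS. *PRRX1* was at 41.4 and 13.5 CPM against 34.2 and 9.75 CPM. At a finer clustering, a second cluster led by *IGFBP3*, *SVEP1* and *WNT2*, with 657, 959 and 700 cells, also took the mesenchyme-like name. In the E19 libraries most of its cells lay outside the mesenchyme-like group described here, which had 38 and 67 cells. They were therefore kept where that group is left out below.

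Extracellular matrix genes had their highest summed level in the mesenchyme-like cells of every library. Their summed level there was 30112 CPM in E19 HSTS, 29994 CPM in E19 HS and 15688 CPM in E16 HS. In somite-like cells it was 4037, 3628 and 3936 CPM, in haematoendothelial progenitor-like cells 2890, 3208 and 2399 CPM, in spinal cord-like cells 819, 629 and 1007 CPM, and in blood progenitor-like cells 128, 99.5 and 313 CPM. Groups were ranked only where a library held at least 50 of their cells, which left out mesenchyme-like cells in E19 HSTS. Of the 40 members with at least 100 UMIs in E19 HS, 21 had their highest group level in mesenchyme-like cells, against 12.1% of all genes. In E16 HS these were 20 of 37 members, against 13.6% of all genes. The level in the highest group was 12 times that in the median group for the median member of E19 HS and 6.71 times for that of E16 HS, against 1.67 and 1.49 times for all genes.

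The same genes drew their UMIs from different cells at the 2 stages. Mesenchyme-like cells held 7.98% of all member UMIs of E19 HSTS, 12.5% of those of E19 HS and 67.6% of those of E16 HS. Somite-like cells held 62.0%, 59.8% and 17.6%. Mesenchyme-like cells held 21.0% of the *COL1A1* UMIs of E19 HSTS, 32.2% of those of E19 HS and 89.6% of those of E16 HS. For *DCN* these shares were 23.7%, 37.2% and 88.2%, for *LUM* 14.8%, 16.9% and 87.8%, and for *COL12A1* 20.5%, 26.3% and 92.2%. In these cells themselves, the library with the high whole-embryo level did not have the high level. *COL1A1* was at 3962 CPM in mesenchyme-like cells of E19 HSTS, 4306 CPM of E19 HS and 3367 CPM of E16 HS.

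**Figure D2:**
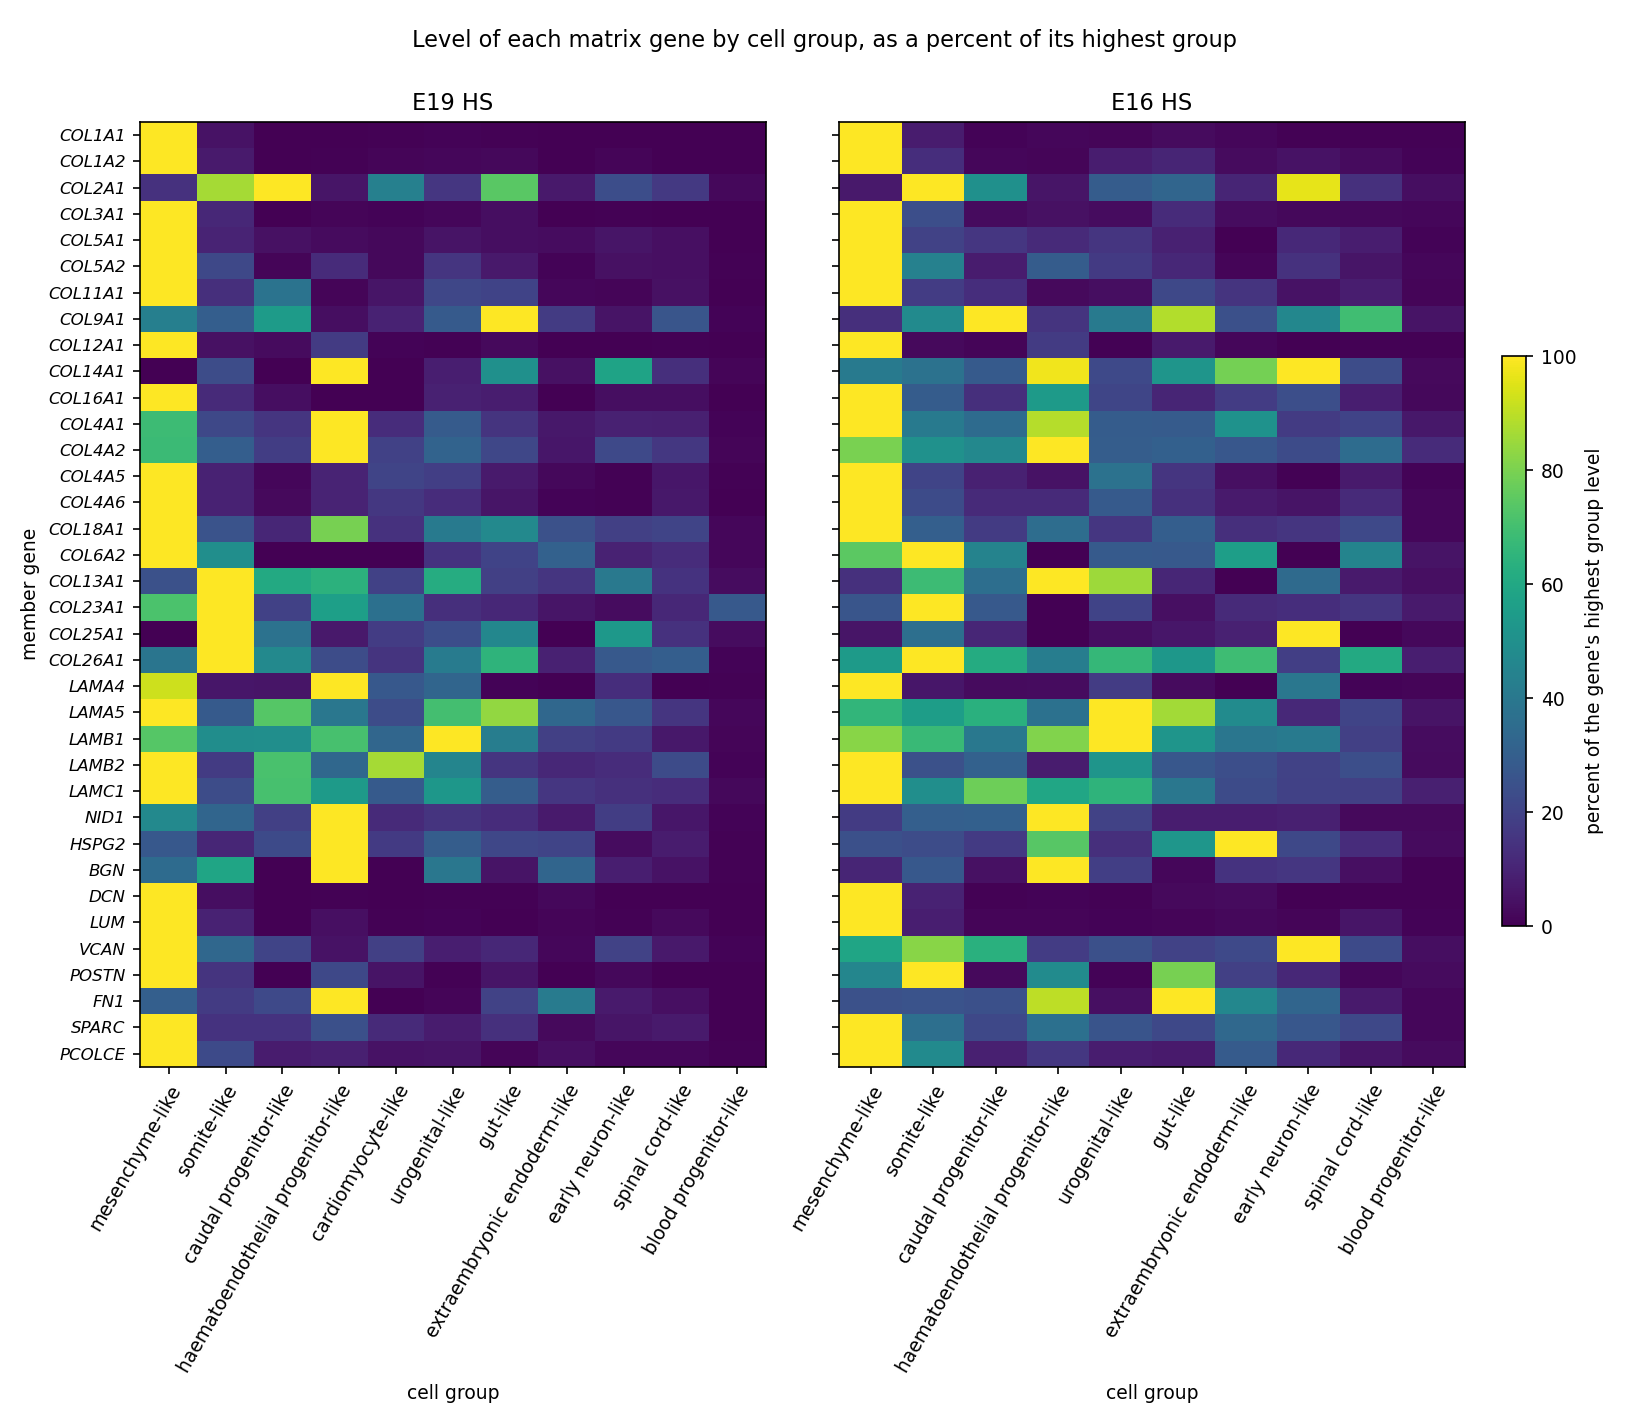
Heat map of 36 extracellular matrix genes with at least 100 UMIs in both HS libraries by cell group, in E19 HS and E16 HS, each level as a percentage of that gene's highest group in the library. The mesenchyme-like column holds the highest value for most fibrillar collagens in both libraries, and *COL4A2*, *BGN* and *NID1* are highest in haematoendothelial progenitor-like cells.

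**Figure D3:**
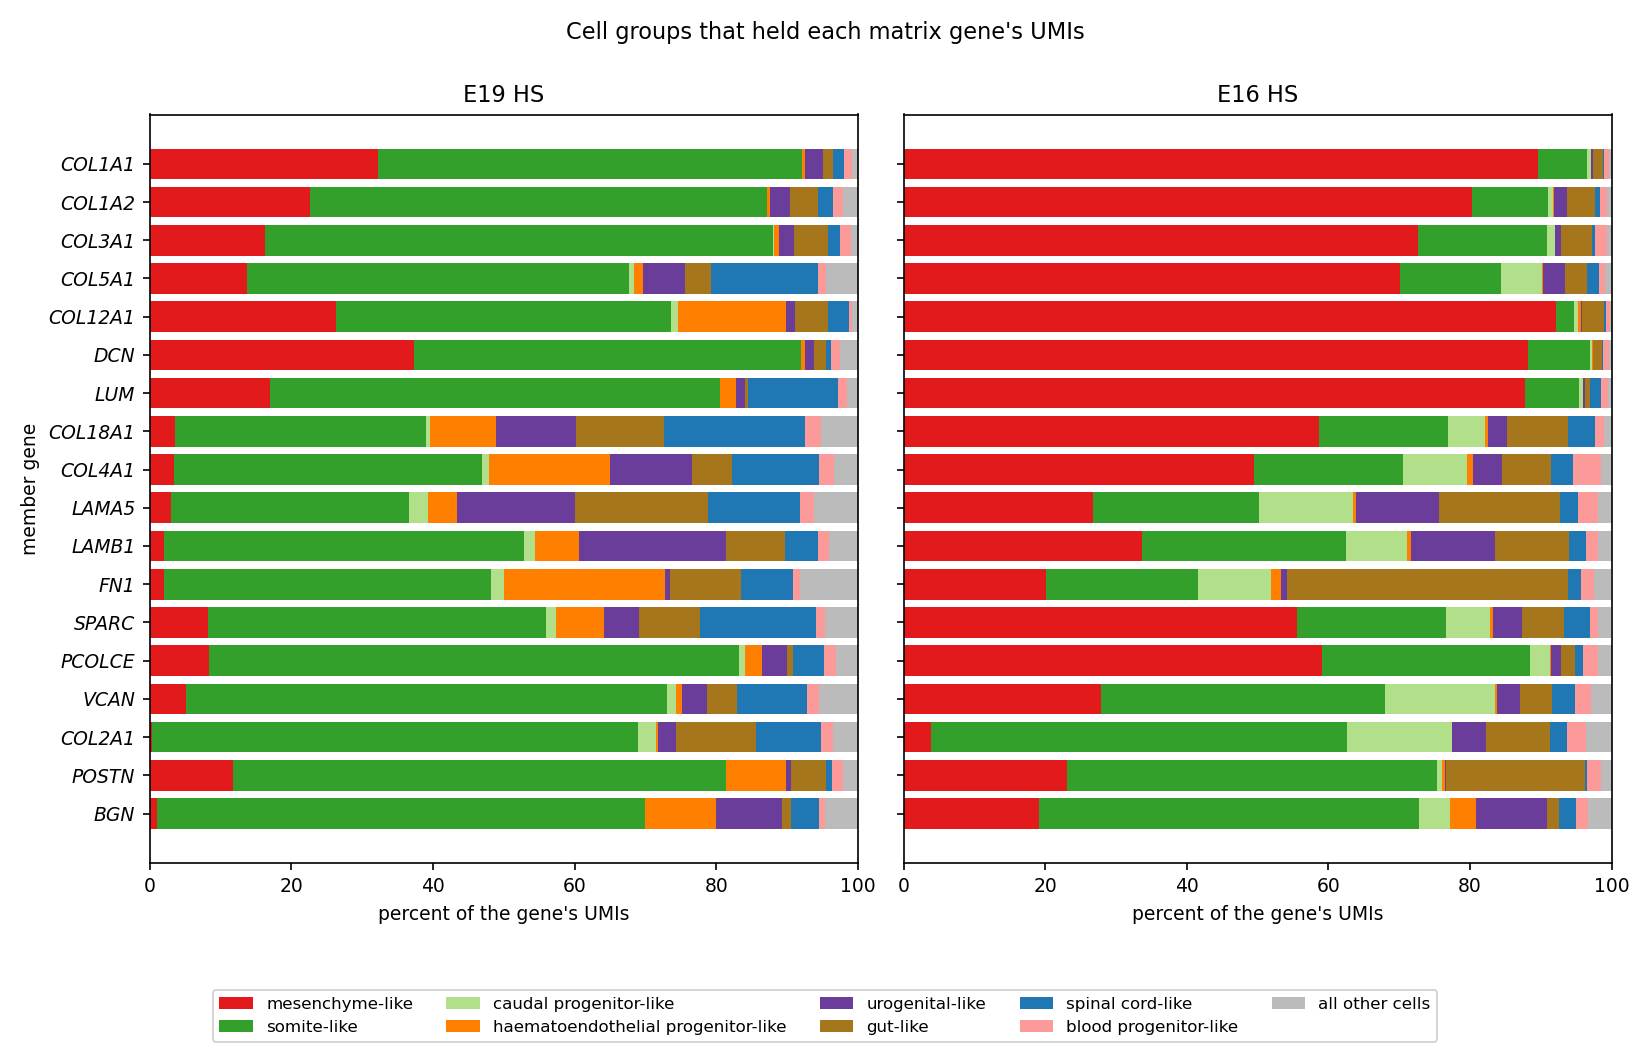
Stacked bars with the share of each gene's UMIs, in percent, that came from each cell group, for 18 extracellular matrix genes in E19 HS and E16 HS. The mesenchyme-like part of *COL1A1* is 32.2% in E19 HS and 89.6% in E16 HS, and that of *DCN* is 37.2% and 88.2%.

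The comparison of the stages was repeated without the mesenchyme-like cluster. The summed level was then 1.16 times as high in E16 HS as in E19 HS, in place of 2.56. Of 42 members compared, 1 was past 2-fold higher, *LAMA5*, against 4.6% of all genes, and 5 were past 2-fold lower, against 4.88%. These were *BGN*, *COL5A3*, *COL6A3*, *COL8A1* and *LAMA2*. Instead, group levels were then averaged with the cell shares of E19 HS, over the 10 groups with at least 50 cells in both libraries. The summed ratio was 1.10, with 1 member higher, against 3.56% of all genes, and 4 lower, against 4.29%. *DCN*, *LUM* and *COL12A1*, which were higher in the whole E16 HS library, were lower than in E19 HS under both, with ratios of 0.835, 0.631 and 0.680 without the cluster and of 0.699, 0.747 and 0.611 at the fixed mix. The mesenchyme-like share of cells, 0.630% in E19 HS and 13.7% in E16 HS, comes from 1 library per stage, so that stage and library cannot be told apart in it.

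Within mesenchyme-like cells, 0 of 28 members were past 2-fold higher in E16 HS, against 16.6% of all genes, and 5 were past 2-fold lower, against 6.7%. The median log2 ratio of the members was −0.54, and that of all genes was 0.24. *POSTN* differed most, at 1536 CPM in E19 HS and 64.6 CPM in E16 HS, or 23.8 times (21.9 to 25.8) higher in E19 HS. E19 HSTS, at 1727 CPM, lay with E19 HS. With E19 HSTS first, then E19 HS and E16 HS, and with each cell thinned to 3000 UMIs, 86.5%, 67.7% and 11.1% of the mesenchyme-like cells of the libraries had a *POSTN* UMI (92.1%, 77.6% and 18.0% before thinning). *VCAN* was at 1639, 1613 and 384 CPM in the 3 libraries, a ratio of 0.238 (0.223 to 0.254) between the HS stages. *DCN* was at 5463, 6592 and 2128 CPM, with a ratio of 0.323 (0.313 to 0.333). The other members past 2-fold lower were *PCOLCE* and *SPARC*, with ratios of 0.384 (0.353 to 0.418) and 0.380 (0.325 to 0.447).

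The fibrillar chains were also lower in these cells in E16 HS, though by less. *COL3A1* was at 5734 CPM in E19 HSTS, 5303 CPM in E19 HS and 2713 CPM in E16 HS, a ratio of 0.512 (0.494 to 0.530). *COL1A2* had a ratio of 0.545 (0.523 to 0.567), *COL5A2* 0.517 (0.461 to 0.581) and *COL1A1* 0.782 (0.753 to 0.812). *COL18A1* was at 223, 185 and 362 CPM, with a ratio of 1.96 (1.63 to 2.37), and *LAMA4* at 47.7, 40.4 and 67.7 CPM, with a ratio of 1.68 (1.14 to 2.57). Other basement membrane genes were lower in E16 HS, *COL4A5* and *COL4A6* with ratios of 0.611 (0.518 to 0.725) and 0.646 (0.550 to 0.763), and for *COL4A2* and *LAMC1* the intervals of 0.758 to 1.12 and 0.636 to 1.03 held 1. The E19 values come from 38 and 67 cells, and summed mesenchyme markers also differed, at 649 CPM in E19 HS and 1267 CPM in E16 HS. Their part in these ratios was not tested.

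**Figure D4:**
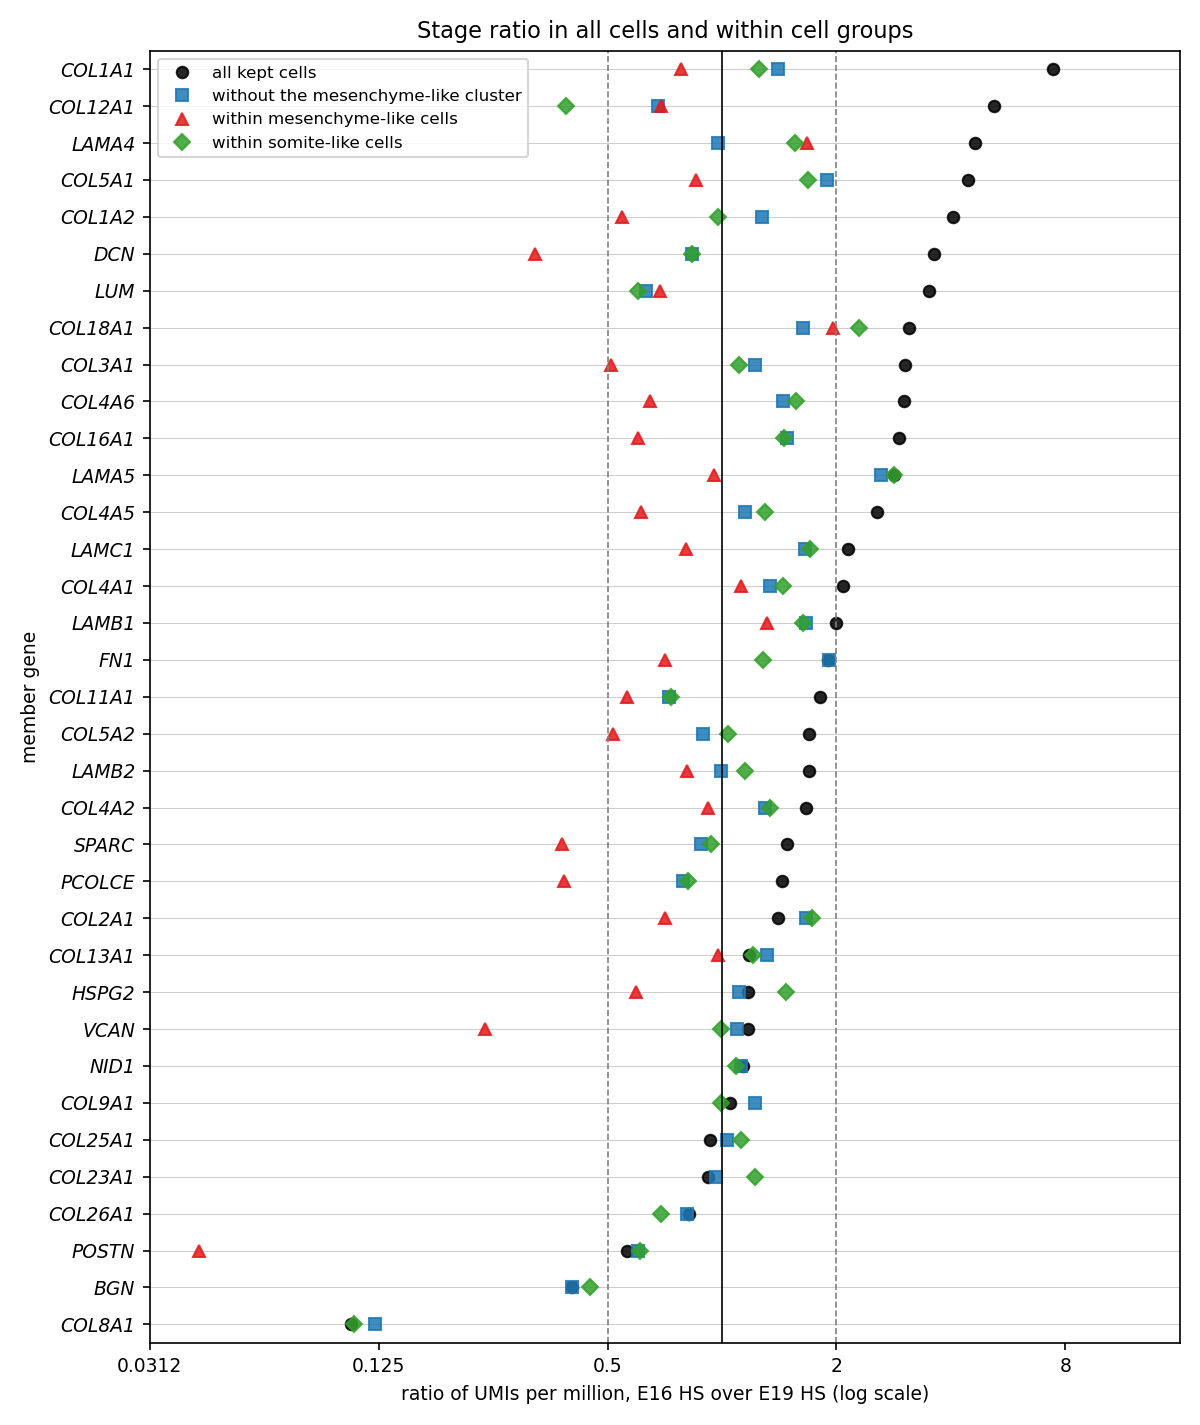
Ratio of E16 HS over E19 HS on a log axis for 35 extracellular matrix genes with at least 500 UMIs, computed over all cells, without the mesenchyme-like cluster, within mesenchyme-like cells and within somite-like cells. *COL1A1* is at 7.45 over all cells and at 0.782 within mesenchyme-like cells, and *POSTN* is furthest to the left within mesenchyme-like cells.

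Somite-like cells are the largest source of matrix UMIs in the E19 libraries, and in them most members differed little between the stages. The group was mixed, as its cluster led by *IGFBP3* had the mesenchyme markers *PRRX1* and *PDGFRA* beside somite markers among its leading genes. Of 40 members, 2 were past 2-fold higher in E16 HS, against 3.37% of all genes, and 5 were past 2-fold lower, against 2.78%. *LAMA5* was at 32.5 CPM in E19 HSTS, 24.7 CPM in E19 HS and 70.0 CPM in E16 HS, a ratio of 2.84 (2.59 to 3.12). *COL18A1* was at 71.8, 47.6 and 109 CPM, with a ratio of 2.29 (2.14 to 2.46). These basement membrane genes were thus higher in E16 HS here too. *COL8A1* was at 14, 14.9 and 1.60 CPM, with a ratio of 0.107 (0.0741 to 0.151), and *LAMA2* at 5.71, 3.82 and 0.533 CPM, with a ratio of 0.140 (0.0697 to 0.255). *COL12A1*, *BGN* and *COL6A3* had ratios of 0.390 (0.315 to 0.479), 0.451 (0.373 to 0.543) and 0.463 (0.297 to 0.707). *COL1A2*, *VCAN* and *COL5A2* had ratios of 0.978 (0.945 to 1.01), 0.996 (0.972 to 1.02) and 1.04 (0.983 to 1.10). The cluster led by *IGFBP3* held most somite-like cells in both E19 libraries, and in E16 HS the cluster led by *H2AC7* held more, with 1546 cells against 1233.

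The finer clusters with somite or lateral markers differed from each other in their matrix genes. *DCN* was at 856 CPM in E19 HSTS, 853 CPM in E19 HS and 499 CPM in E16 HS in the cluster led by *IGFBP3*, *SVEP1* and *WNT2*. In the cluster led by *MEOX2* and *MEOX1* it was at 19.3, 24.2 and 23.6 CPM. *POSTN* followed the same order, at 770, 635 and 366 CPM against 22.7, 60.8 and 7.76 CPM. *COL8A1* went the opposite way, at 9.20, 4.19 and 3.29 CPM in the first cluster and 27.1, 28.9 and 2.36 CPM in the second. *LUM* differed less between the clusters, at 229, 245 and 211 CPM against 156, 192 and 78.3 CPM. Of these clusters, decorin and periostin were thus higher in the one with the lateral marker *HAND2* among its leading genes, and *COL8A1* was higher, in the E19 libraries, in the one with the somite markers *MEOX1* and *MEOX2*.

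In spinal cord-like cells, lumican was found without decorin. *LUM* was at 78.1 CPM in E19 HSTS, 55.0 CPM in E19 HS and 80.8 CPM in E16 HS, and *DCN* was at 1.80, 4.52 and 10.6 CPM. After thinning to 3000 UMIs, 19.2%, 12.4% and 18.6% of these cells had a *LUM* UMI (36.4%, 24.2% and 36.7% before thinning). In blood progenitor-like cells, which should lack it and serve as background, the shares were 0.967%, 0.922% and 3.17% after thinning and 3.87%, 3.45% and 12.8% before. The median depth of the spinal cord-like cells was 6848 to 7394 UMIs, and that of the blood progenitor-like cells 13947 to 17568 UMIs. *DCN* had a UMI in 0.469%, 0.532% and 2.44% of thinned spinal cord-like cells and in 0.735%, 0.922% and 3.33% of thinned blood progenitor-like cells. The *DCN* share was thus at the level of background, and the *LUM* share was above it in each library.

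Many members had higher levels in the blood progenitor-like cells of E16 HS, in which free RNA and the cells' own RNA cannot be told apart. In blood progenitor-like cells *COL1A1* was at 5.60 CPM in E19 HSTS, 3.95 CPM in E19 HS and 22 CPM in E16 HS, *COL3A1* at 17.7, 12.3 and 50.9 CPM, and *COL4A1* at 14.6, 13.1 and 61.6 CPM. There 14 of 19 members compared were past 2-fold higher in E16 HS, where 39.1% of all genes were. Most of these cells belonged to clusters led by *MT1C* in the E19 libraries and to a cluster led by *SRGN* in E16 HS. In spinal cord-like cells *COL1A1* was at 6.49, 7.41 and 21.1 CPM, no higher in E16 HS than in the blood progenitor-like cells. In gut-like cells it was at 25.5, 26.3 and 102 CPM, above the blood level in each library. The ratio between the HS stages was 3.87 (3.22 to 4.69). Past 2-fold higher in E16 HS were 7 of 26 members in gut-like cells, against 6.27% of all genes. In spinal cord-like cells these were 6 of 23, against 2.25%. In both groups 0 were past 2-fold lower, against 2.69% and 2.71%. In caudal progenitor-like cells 11 of 24 were past 2-fold higher, against 7.11%, and 3 lower, against 3%. In early neuron-like cells 4 of 9 were higher, against 4.64%, and 1 lower, against 7.38%. In urogenital-like cells these were 5 of 23, against 3.97%, and 2, against 4.6%. Haematoendothelial progenitor-like cells had 0 of 14 higher, against 1.74%, and 2 lower, against 4.83%. The part of free RNA in the higher E16 HS levels of groups other than mesenchyme-like cells was not tested.

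Haematoendothelial progenitor-like cells, whose leading genes included *PECAM1*, *CDH5*, *PLVAP* and *KDR*, had the highest group level of a few members. In E19 HS, 8 of 40 members had their highest level there, against 13.9% of all genes, and in E19 HSTS 11 of 40, against 19.4%. In E16 HS it was 4 of 37, against 19.4%. The shares in the E19 libraries were thus not far above those of any gene, and that in E16 HS was below. In E19 HSTS the 38 mesenchyme-like cells were too few to be ranked, so the counts of the libraries do not rest on the same groups. In E19 HS they were *BGN*, *COL14A1*, *COL4A1*, *COL4A2*, *FN1*, *HSPG2*, *LAMA4* and *NID1*. *COL4A1* was at 1305 CPM in E19 HSTS, 1267 CPM in E19 HS and 865 CPM in E16 HS, where mesenchyme-like cells had a higher level of 971 CPM. *COL4A2* was at 260, 248 and 194 CPM. *FN1* was at 184, 205 and 159 CPM. *LAMA4*, the alpha chain of the endothelial laminins, was at 53.5 and 43.8 CPM in the E19 libraries, and in the 53 cells of E16 HS it had 1 UMI, or 2.34 CPM. The 3 libraries lay close to each other for *COL4A2*, *FN1* and *BGN*, and E16 HS stood apart for *LAMA4*. *COL15A1*, a collagen of vessel and muscle basement membranes, had 15 of its 23 UMIs in these cells in E19 HSTS, 14 of 17 in E19 HS and 0 of 32 in E16 HS. It was at 9.79 and 6.45 CPM there in the E19 libraries. In the 53 cells of E16 HS 3 counts correspond to 7.03 CPM, so the 0 does not show a lower level. Its highest group level in E16 HS was 0.920 CPM, in mesenchyme-like cells.

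Epithelial groups shared the laminin genes with the mesenchyme-like cells. Among groups with at least 50 cells, *LAMB1* had its highest level in urogenital-like cells in all 3 libraries. It was at 134 CPM in E19 HSTS, 135 CPM in E19 HS and 159 CPM in E16 HS there. *LAMA5* was at 58.7, 61.0 and 126 CPM in these cells and at 71.7, 73.0 and 108 CPM in gut-like cells. *FN1* in gut-like cells was at 71.3, 40.6 and 177 CPM, a ratio of 4.35 (3.76 to 5.07) between the HS stages. *COL9A1*, a chain of the fiber-associated type IX collagen, was at 34.7, 25.1 and 13.8 CPM there. Past 2-fold between the HS stages were thus *LAMA5* in urogenital-like cells and *FN1* in gut-like cells, and *LAMB1* differed little. Gut-like cells of E16 HS included 329 of 905 cells in a cluster led by *UPK3A*, which held 2 and 7 cells of the E19 libraries. Urogenital-like cells shared leading genes with finer clusters that also differed in size between the libraries. The one led by *SLPI* had 36, 80 and 148 cells, and the one led by *SLC34A1* 76, 74 and 0.

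A few members lay largely in small groups. *COL5A3* was highest in early neuron-like cells, at 74.5 CPM in E19 HSTS, 55.7 CPM in E19 HS and 15.4 CPM in E16 HS, and they held 87.7%, 85.6% and 55.6% of its UMIs. The finer cluster led by *NEFM* held 247, 266 and 19 cells, so that few cells of E16 HS matched it. *COL4A3*, a chain of the glomerular type IV network, had 70.5% of its E19 HSTS UMIs, 74.1% of its E19 HS UMIs and 38.9% of its E16 HS UMIs in an unnamed finer cluster led by *SLPI*, *PTPRO* and *C1QA*. This cluster had 36, 80 and 148 cells, and *COL4A3* was at 155, 74.3 and 4.46 CPM in it. *PTPRO* is known from the podocytes of the kidney and *C1QA* from macrophages. *LAMA2* was at 29.6 and 29.8 CPM in the skeletal myogenic-like cells of E19 HSTS and E19 HS, of which E16 HS held 1 cell, and at 16.7 and 14.4 CPM in their cardiomyocyte-like cells. *COL4A3* was thus lower in E16 HS within its cluster, and the skeletal myogenic-like cells with *LAMA2* were nearly missing from E16 HS. *COL5A3* was lower in the early neuron-like group of E16 HS. As few of those cells lay in the *NEFM* cluster, a difference within the same cells cannot be read from its levels.

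*COL2A1*, the collagen of notochord sheath and cartilage, was spread over somite-like cells at 222 CPM in E19 HSTS, 188 CPM in E19 HS and 325 CPM in E16 HS, and over the finer neural crest-like cluster at 175, 152 and 405 CPM. *VCAN* was at 1153, 752 and 741 CPM in that cluster and at 662, 537 and 535 CPM in somite-like cells. *COL25A1*, a membrane collagen of neurons, was at 19.0, 16.2 and 21.2 CPM in the neural crest-like cluster, which had 108, 126 and 242 cells.

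Partner chains of 1 protein were compared as ratios within the same cells. Over all kept cells, *COL1A1* had 0.732 UMIs per *COL1A2* UMI in E19 HSTS (0.710 to 0.754), 0.779 in E19 HS (0.758 to 0.802) and 1.43 in E16 HS (1.42 to 1.45). In mesenchyme-like cells the ratio was 0.912, 1.11 and 1.60, and in somite-like cells 0.788, 0.722 and 0.923. In gut-like cells it was 0.135 (0.109 to 0.166), 0.299 (0.243 to 0.365) and 0.469 (0.436 to 0.505). In these groups the ratio was thus higher in E16 HS than in E19 HS, and it was lower in gut-like than in mesenchyme-like cells in each library. Urogenital-like cells went the other way, with 0.492, 0.659 and 0.300. Per *COL4A2* UMI, *COL4A1* had 3.75, 3.83 and 4.79 UMIs over all kept cells, with E19 HSTS first and E16 HS last. This ratio was 2.81, 2.74 and 2.86 in spinal cord-like cells and 4.91, 5.12 and 6.26 in mesenchyme-like cells. *COL4A6* and *COL4A5* kept a ratio near 1, at 0.982, 0.964 and 1.14. *LAMB1* had 2.35, 2.51 and 2.40 UMIs per *LAMC1* UMI in somite-like cells, and 0.797, 0.613 and 1.75 in spinal cord-like cells. In the absence of transcript length and capture rates these ratios do not give the balance of the proteins.

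**Figure D5:**
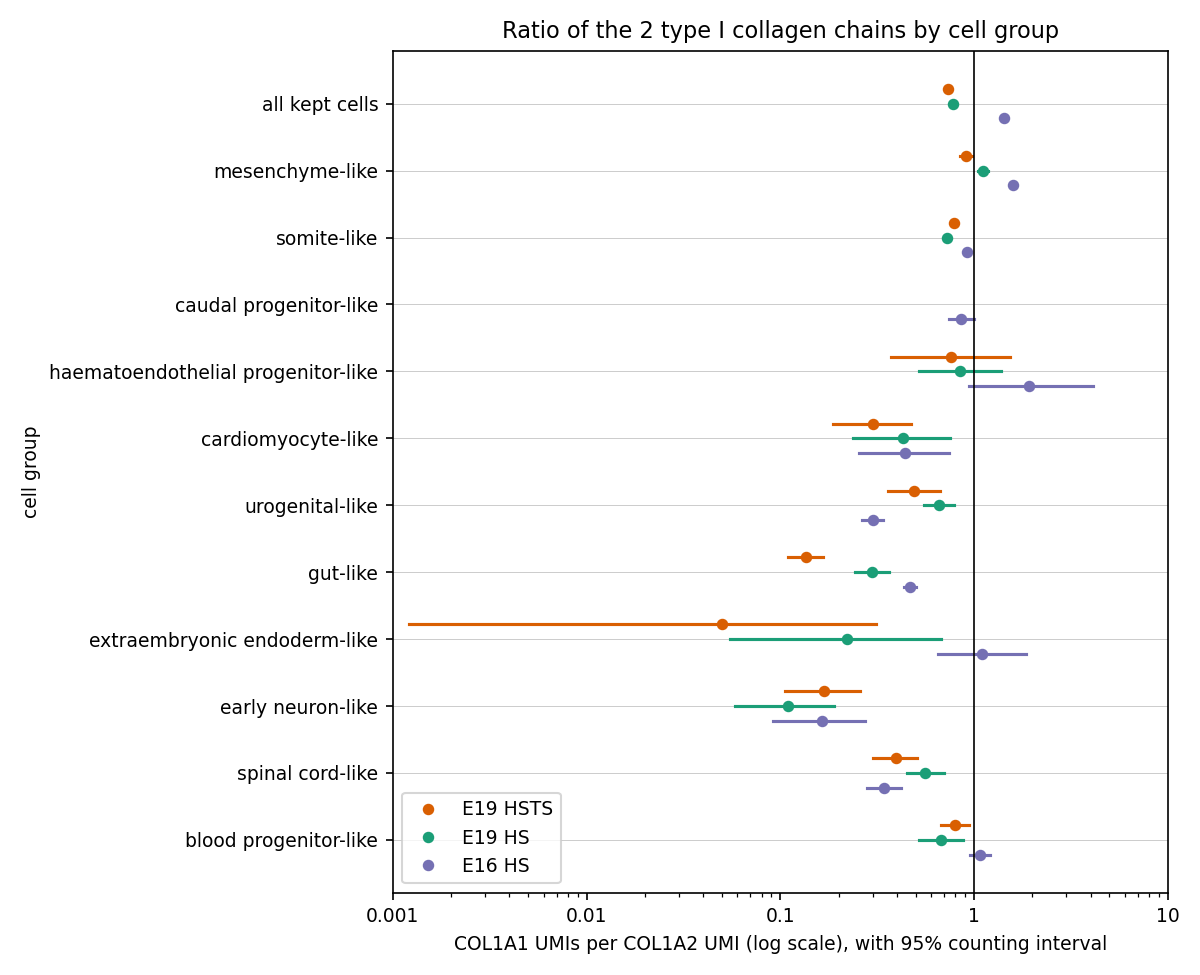
UMIs of *COL1A1* per UMI of *COL1A2* by cell group and library, with exact 95% intervals for counting error. E16 HS is above both E19 libraries in mesenchyme-like cells, at 1.60 against 0.912 and 1.11, and below them in urogenital-like cells, at 0.300 against 0.492 and 0.659.

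The E19 libraries of both breeds were much closer to each other. Of 44 members compared, 0 were at least 2-fold higher in E19 HSTS than in E19 HS, against 1.17% of all genes, and 0 were at least 2-fold lower, against 1.64%. The median log2 ratio was −0.17 for members and −0.05 for all genes. The ratio was furthest below 1 for *COL6A3* at 0.579 (0.415 to 0.803), *COL9A2* at 0.588 (0.422 to 0.814), *BGN* at 0.668 (0.588 to 0.757), *LUM* at 0.701 (0.677 to 0.725) and *DCN* at 0.719 (0.699 to 0.739). *COL5A3*, at 1.29 (1.04 to 1.61), and *LAMA2*, at 1.25 (0.999 to 1.56), were among those above 1. Blood progenitor-like cells held 45.6% of the E19 HSTS UMIs and 28.8% of the E19 HS UMIs, and without them the summed ratio was 1.11 in place of 0.868, the direction reversed. The median log2 ratio without them was 0.20 for members and 0.21 for all genes.

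Within groups, few members differed past 2-fold between the E19 libraries. In somite-like cells 0 of 40 did, where 1.37% of all genes were past 2-fold higher and 0.739% lower, and *COL12A1*, at 22.3 CPM in E19 HSTS and 14.1 CPM in E19 HS, had a ratio of 1.58 (1.38 to 1.81). In urogenital-like cells 5 of 22 were past 2-fold lower in E19 HSTS, against 0.664% of all genes. There *DCN* was at 3.51 and 29.6 CPM, a ratio of 0.118 (0.0694 to 0.191), and *COL1A1* at 11.6 and 41.8 CPM, a ratio of 0.278 (0.207 to 0.370). *COL11A1*, *COL1A2* and *LUM* were the others. The E19 HSTS level of *DCN* lay below that of blood progenitor-like cells, at 6.90 CPM. No member compared was past 2-fold higher there, against 1.42% of all genes. In haematoendothelial progenitor-like cells *POSTN* was at 128 and 332 CPM, a ratio of 0.385 (0.327 to 0.452), and *LUM* had a ratio of 0.395 (0.281 to 0.544). In gut-like cells *COL1A2*, at 189 and 88.1 CPM, was 2.14 times as high in E19 HSTS (1.90 to 2.42). These values rest on 494 and 587 urogenital-like, 168 and 285 haematoendothelial progenitor-like and 402 and 537 gut-like cells of 1 embryo each. The urogenital-like group shared leading genes with finer clusters led by *SLPI*, with 36 and 80 cells, and by *SLC34A1*, with 76 and 74. Their part in the urogenital-like ratios was not tested.

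Genes that build, cut or bind the matrix were described from lists outside the 60 members. Of 17 compared genes for collagen folding and modification, 4 were past 2-fold higher in E16 HS than in E19 HS and 0 lower, with a median log2 ratio of 0.73. Of all genes, 6.47% were past 2-fold higher and 5.13% lower, for this and the following lists. *SERPINH1*, the collagen chaperone HSP47, was at 59.9 CPM in E19 HSTS, 67.6 CPM in E19 HS and 204 CPM in E16 HS, a ratio of 3.02 (2.94 to 3.11). *PLOD2*, which hydroxylates lysine for cross-links, had a ratio of 2.84 (2.66 to 3.03), *P3H4* 2.36 (2.26 to 2.47) and the prolyl hydroxylase *P4HA1* 2.18 (2.10 to 2.26). *SERPINH1* was highest in mesenchyme-like cells in both HS libraries, at 561 CPM in E19 HS and 655 CPM in E16 HS. At the cell mix of E19 HS, 0 of the 17 were past 2-fold in either direction, and the ratio of *SERPINH1* was 1.55. *P3H2* and *TMEM38B*, also of this list, had whole-library ratios of 0.993 and 0.906.

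Of 8 genes for procollagen cleavage and cross-linking, 3 were higher and 0 lower, namely *PCOLCE2* at 4.59 (3.91 to 5.41), the procollagen N-proteinase *ADAMTS2* at 2.83 (2.26 to 3.58) and the cross-linking oxidase *LOX* at 2.08 (1.86 to 2.34). At the cell mix of E19 HS only *PCOLCE2* of these stayed past 2-fold, at 2.27, and *ADAMTS2* and *LOX* were at 1.10 and 0.750. Of 28 other matrix genes, 5 were higher and 1 lower. At that mix 1 was higher and 2 lower, against 3.56% and 4.29% of all genes. The nidogen *NID2* was at 6.68 CPM in E19 HS and 26.9 CPM in E16 HS, a ratio of 4.03 (3.69 to 4.41) that its relative *NID1* did not share. The thrombospondin *THBS3* and the basement membrane gene *FREM1* had ratios of 2.98 (2.68 to 3.33) and 2.44 (2.20 to 2.70). At the fixed mix *NID2*, *THBS3* and *FREM1* were at 1.10, 1.64 and 1.25. The other genes past 2-fold were *SMOC2* at 2.04 (1.85 to 2.24) and *MGP* at 3.38 (2.33 to 5.03), with fixed-mix ratios of 1.08 and 1.98, and the lower *SPON2* at 0.193 (0.134 to 0.271), with 0.205. Of 17 degradation genes, 1 was higher, the metalloprotease *ADAMTS12*, and 1 lower, *CTSK* for cathepsin K, and their ratios of 2.85 and 0.367 became 0.907 and 0.843 at the fixed mix. Of 16 receptor genes 1 was higher, the hemidesmosome integrin *ITGB4*, and 0 lower. The counts of degradation and receptor genes are near the share of all genes. Between the E19 libraries 1 gene of those compared in all these lists was past 2-fold, *PLOD1*, which was lower in E19 HSTS with a ratio of 0.475 (0.420 to 0.537). At the fixed mix, which for the E19 libraries left out mesenchyme-like and caudal progenitor-like cells, this ratio was 0.604, no longer past 2-fold. For the folding list the median log2 ratio of E19 HSTS over E19 HS was −0.41, with *P4HA1* at 0.533 (0.506 to 0.560), or 0.703 at the fixed mix.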

How the data were processed

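Single-cell RNA libraries of whole sheep embryos were made with droplet 3′ chemistry. The authors aligned the reads to the sheep genome and counted UMIs with Cell Ranger 6.1.2, and the submitters' processing notes also name R 4.1.2 and Seurat 4.1.1. The deposited values are raw UMI counts per gene and cell for barcodes called as cells, 11114, 12064 and 12645 of them, with 107817481, 94754580 and 128271878 UMIs in the order E19 HSTS, then E19 HS, then E16 HS. They were checked to be whole numbers.

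Counts of kept cells were summed per library or group in Python 3.11.15 (numpy 2.4.6, scipy 1.17.1, pandas 2.3.3, with matplotlib 3.10.9 for plots). Ratios have exact conditional binomial intervals. With 1 library per group no test was made, and a gene with at least 100 UMIs over the compared libraries or groups was called past 2-fold. Clusters were made in R 4.3.3 with Seurat 5.3.0 from 2000 variable genes without the members, 25 components and a resolution of 0.25, with the mitochondrial share regressed out and no integration. They were named from 21 marker lists, where 3 markers had to be detected in 10% of cells. Scrublet, in scanpy 1.11.5, marked 193, 0 and 198 cells as doublets, so that it did not work for E19 HS, and no cell was removed. Shares of cells with a UMI were computed after thinning each cell to 3000 UMIs, leaving out shallower cells. The steps were tested on simulated data.

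Any member could be named, and in full the 10 furthest from a ratio of 1 on either side at 500 UMIs or more, partner chains and the genes taken by name. Of the other lists, the 3 furthest from 1 on either side at 500 UMIs or more were named, and the remaining genes of these lists past 2-fold were named after their values were seen, as were *P3H2*, *TMEM38B* and, in the breed comparison, *P4HA1*. Values of 1 member, which is counted among the 60, and 1 leading gene of a cluster are not reported here. The members and lists were chosen with earlier results of these data known. Other settings tried were TMM scaling (edgeR 4.0.16), stricter and no filtering of cells, other minimum counts, cell groups left out, a fixed cell mix, doublet scores and other clusterings. The alternative without the mesenchyme-like cluster was chosen after seeing the data.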

Additional observations from a re-analysis of the deposited data

Results flagged for a closer look

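For 3 members the whole counting interval of the ratio of E16 HS to E19 HS lay past 2-fold higher in 1 cell group and past 2-fold lower in another. There is 1 library per stage, and the difference between the groups was not tested. *DCN* was 2.96 times (2.45 to 3.61) as high in E16 HS in blood progenitor-like cells, and its ratio was 0.323 (0.313 to 0.333) in mesenchyme-like cells. The *DCN* share of blood progenitor-like cells served as background, and free RNA and the cells' own RNA cannot be told apart in the first of these ratios. *LUM* was 3.79 times (2.52 to 5.94) as high in gut-like cells, at 5.39 and 20.4 CPM against 3.91 and 13.6 CPM in blood progenitor-like cells of E19 HS and E16 HS, and its ratio was 0.231 (0.0983 to 0.466) in haematoendothelial progenitor-like cells. *VCAN* was 5.53 times (3.67 to 8.46) as high in extraembryonic endoderm-like cells, and its ratio was 0.238 (0.223 to 0.254) in mesenchyme-like cells. Intervals cover counting error only.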

How the results depend on the processing

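The summed ratio of E16 HS to E19 HS, 2.56, was 2.54 with the stricter filter, 2.53 with all deposited cells, 2.22 with TMM scaling, 2.41 without blood progenitor-like cells, 2.61 without the highest doublet scores, 1.10 at the fixed cell mix and 1.16 without the mesenchyme-like cluster. Between E19 HSTS and E19 HS the summed ratio, 0.868, was 0.838, 0.877 and 0.903 in the first 3 of these and 0.911 without the mesenchyme-like cluster. It reversed to 1.11 without blood progenitor-like cells and 1.13 at the fixed cell mix. That mix used only the 9 groups with at least 50 cells in both E19 libraries. It left out mesenchyme-like and caudal progenitor-like cells, of which E19 HSTS had 38 and 30. Of the 15 members past 2-fold higher in E16 HS, the count was 1 at the fixed mix and 1 without the mesenchyme-like cluster. The shares of all genes there were 3.56% and 4.6%. The 4 past 2-fold lower became 7 with TMM scaling, 7 at a minimum of 20 UMIs and 2 at a minimum of 500 UMIs. The shares of all genes in these settings were 6.79%, 7.89% and 3%. At 20 UMIs, 1 member was past 2-fold higher (*COL19A1*) and 1 lower (*COL9A3*) in E19 HSTS, against 2.4% and 3.3% of all genes. Of the genes given in full, these reversed at the fixed mix and without the mesenchyme-like cluster: *LUM* to 0.747 and 0.631, *DCN* to 0.699 and 0.835, and *COL12A1* to 0.611 and 0.680. Other members also crossed 1 under both, among them *COL11A1* from 1.81 to 0.656 and 0.724, *PCOLCE* from 1.44 to 0.826 and 0.789, *SPARC* from 1.48 to 0.927 and 0.878, and *COL5A2* from 1.69 to 0.959 and 0.891. *LAMA4* reversed to 0.974 without that cluster. The number of members highest in mesenchyme-like cells of E19 HS, 21, was 15 at a resolution of 1.0 and 21 or 22 under the stricter filter, without the highest doublet scores, with members kept in the clustering and with RPCA integration.

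Each group has 1 library, so leaving out a replicate was not possible and the spread between embryos is unknown. No paired analysis was possible because the groups share only replicate number 1 and no result comes from a test. Breed cannot be told apart from embryo, nor stage from library. Members under 100 UMIs give no usable ratio, and in small groups 1 UMI is a visible level.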
